A study of Mus musculus with 6 samples.

Results

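The genes described here are 8 genes of cholesterol synthesis and its control in the left ventricle of mice with a myocardial infarction (MI). They are the transcription factor genes Srebf1 and Srebf2, the gene of their inhibitor Insig1, and the enzyme genes Hmgcs1, Idi1, Fdps, Fdft1 and Sqle. They were chosen by name from the 34745 genes listed for each library, and all 8 passed the filter on low counts that left 13940 genes for testing. The 6 libraries fall into 2 groups of 3. MI-DAPA came from infarcted mice treated with dapagliflozin, a drug that blocks SGLT2, the renal cotransporter of sodium and glucose, and MI-NS from infarcted mice given NS, an abbreviation that the labels do not spell out. The files of the MI-NS group carry the abbreviation SA instead, and the group was taken from the labels. Every group was infarcted, and no library without infarction was analysed here. Strain, age, dose, time after infarction and the part of the ventricle taken were not given in the sources used here. The series asks what dapagliflozin changes in the failing heart.

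Animal cells make cholesterol from acetyl-CoA through mevalonate, isoprenoid diphosphates, squalene and lanosterol. When sterols run low in the endoplasmic reticulum, the escort protein Scap carries the SREBP precursors to the Golgi, where they are cut to release active transcription factors. Insig proteins hold Scap back when sterols are plentiful. The product of Srebf2 acts mainly on the genes of sterol synthesis and uptake, and that of Srebf1 mainly on fatty acid synthesis. The activity of both factors is set largely by this processing, which mRNA levels do not measure. The heart takes up much of its cholesterol and fatty acid from the blood, and its own synthesis is low compared with that of the liver.

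Total counts per library were 19086206 to 20563188 in MI-DAPA and 17207974 to 20540321 in MI-NS. Levels are given as CPM, read counts relative to the size of the library after scaling by TMM factors, which adjust totals for composition. A level of 3 counts, the limit that a count of 0 allows for counting error, was 0.148 to 0.172 CPM in MI-DAPA and 0.133 to 0.178 CPM in MI-NS. Over all 13940 genes, the quasi-likelihood test of edgeR, adjusted by Benjamini-Hochberg, called 1212 genes higher (8.69%) and 1092 lower (7.83%) in MI-DAPA at an adjusted p under 0.05, or 16.5% in either direction. Scaling by library totals alone, 24.7% of the calls were upward instead of 52.6%, and the median of all genes moved by -0.10 on the log2 scale. Without replicate 3 of both groups, which differ from the rest in how the files are named, 8 genes were higher and 16 lower. The summed level of 10 adult cardiomyocyte markers was 60155 to 64427 CPM in MI-DAPA and 46784 to 48551 CPM in MI-NS, with 7 higher and 0 lower. That of 10 fibroblast markers was 1193 to 1443 CPM in MI-DAPA and 2241 to 3074 CPM in MI-NS, with 7 lower and 0 higher. That of 10 macrophage markers was 325 to 365 CPM in MI-DAPA and 420.4 to 517 CPM in MI-NS, with 4 lower and 0 higher. That of 10 endothelial markers was 1545 to 1621 CPM in MI-DAPA and 1846 to 2106 CPM in MI-NS, with 4 lower and 0 higher, and of 10 mural cell markers 3 were lower and 1 was higher. In bulk tissue fewer cells of a type and less RNA per cell cannot be told apart, and the part of this shift in the values below was not tested.

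Of the 8 genes, 1 was higher in MI-DAPA and 0 were lower. Fdft1, which encodes squalene synthase, rose 1.47-fold, while the 7 others did not pass. The share of calls, 1 of 8, lies close to the 16.5% called over all genes, and the median log2 change of the 8 genes was 0.01, beside -0.02 for all tested genes. Changes had a positive sign in 4 genes and a negative sign in 4. Genes with an unadjusted edgeR p under 0.05 numbered 2 of the 8, Fdft1 and Srebf2, beside 4499 of all 13940 tested genes. In these 2 all MI-DAPA libraries lay on 1 side of all MI-NS libraries, as in 37.0% of all tested genes. Counts of the 8 genes were the same, 1 higher and 0 lower, with each of the 6 libraries left out in turn. Fdft1 missed the threshold without replicate 3 of both groups, where its log2 change was 0.55 with an edgeR adjusted p of 0.0851.

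**Figure D1:**
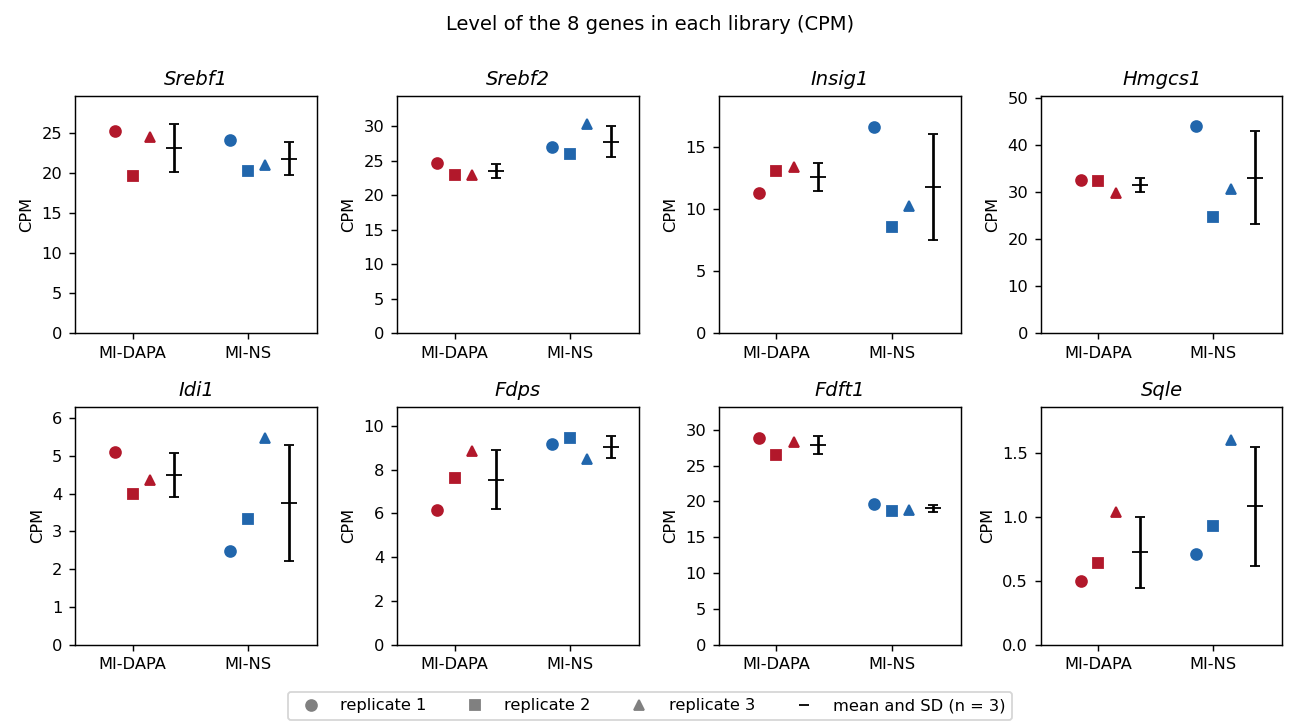
Level of each of the 8 genes in CPM (y axis, from 0) in the 3 MI-DAPA and the 3 MI-NS libraries; symbols mark the replicate number and the black bar the mean and SD. The groups are apart for Fdft1 (26.5 to 28.9 CPM in MI-DAPA and 18.6 to 19.7 CPM in MI-NS) and narrowly for Srebf2, and MI-NS replicate 1 stands high for Hmgcs1 and Insig1.

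Srebf2 (ENSMUSG00000022463, chromosome 15, 82147266 to 82205376 on mm10) had 24.7, 23.0 and 22.9 CPM in MI-DAPA replicates 1 to 3, against 27.0, 25.99 and 30.4 CPM in MI-NS replicates 1 to 3. All 3 MI-DAPA libraries lay below all 3 MI-NS libraries, the closest values being 24.7 and 25.99 CPM. The group means were 23.5 ± 1.0 CPM in MI-DAPA and 27.8 ± 2.29 CPM in MI-NS (SD, n = 3 each). The log2 change of -0.24 ± 0.09 (SE; 95% interval -0.45 to -0.03) did not pass after adjustment over all genes (edgeR adjusted p = 0.115). Such a separation downward was seen in 18.5% of all tested genes. The sign was negative under each of the 16 alternative settings, between -0.34 and -0.13, and the smallest adjusted p among them was 0.0749.

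Srebf1 (ENSMUSG00000020538, chromosome 11, 60199089 to 60222581) encodes both SREBP-1 proteins, which start from different first exons and cannot be separated in counts per gene. It had 25.3, 19.7 and 24.6 CPM in MI-DAPA replicates 1 to 3, against 24.2, 20.4 and 21.03 CPM in MI-NS replicates 1 to 3. The groups overlapped, with the lowest value of all in MI-DAPA replicate 2. The log2 change was 0.08 ± 0.12 (95% interval -0.19 to 0.36, edgeR adjusted p = 0.67), and -0.023 when scaled by library totals alone. The interval leaves room for a fold change between 0.877 and 1.28. By edgeR, then, neither SREBP gene passed at the mRNA level.

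Insig1 (ENSMUSG00000045294, chromosome 5, 28071363 to 28078662) encodes a protein that retains Scap and SREBP in the endoplasmic reticulum, and the gene is itself a textbook SREBP target. It had 11.3, 13.1 and 13.4 CPM in MI-DAPA replicates 1 to 3, against 16.6, 8.53 and 10.2 CPM in MI-NS replicates 1 to 3. MI-NS replicate 1 was the highest of the 6 libraries, while the other two of its group were the lowest. The mean was 12.6 ± 1.14 CPM in MI-DAPA and 11.8 ± 4.27 CPM in MI-NS. The log2 change of 0.09 ± 0.23 (95% interval -0.43 to 0.60, edgeR adjusted p = 0.828) became 0.44 ± 0.15 without MI-NS replicate 1, with an adjusted p of 0.088. Leaving out MI-NS replicate 2 gave -0.093, leaving out MI-NS replicate 3 gave -0.0028, and scaling by library totals alone gave -0.028, so no direction can be given.

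Hmgcs1 (ENSMUSG00000093930, chromosome 13, 119690462 to 119708086) encodes the cytosolic HMG-CoA synthase, which makes HMG-CoA, the precursor of mevalonate. It had 32.5, 32.5 and 29.9 CPM in MI-DAPA replicates 1 to 3, against 44.1, 24.7 and 30.7 CPM in MI-NS replicates 1 to 3. As with Insig1, the MI-NS libraries spanned a range that enclosed every MI-DAPA value, with replicate 1 highest and replicate 2 lowest. The mean was 31.7 ± 1.49 CPM in MI-DAPA and 33.2 ± 9.97 CPM in MI-NS. The log2 change was -0.07 ± 0.19 (95% interval -0.49 to 0.35, edgeR adjusted p = 0.836), and 0.21 ± 0.12 without MI-NS replicate 1 (adjusted p = 0.29). Its spread within MI-NS, an SD of 0.42 on the log2 scale, exceeded that of 88.6% of tested genes, while its SD within MI-DAPA of 0.07 stood at percentile 18.7.

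Hmgcs1 and Insig1 had the same order within MI-NS but not within MI-DAPA, where Hmgcs1 was lowest and Insig1 highest in replicate 3. The ratio of Hmgcs1 to Insig1 counts was 2.89, 2.48 and 2.24 in MI-DAPA replicates 1 to 3 and 2.65, 2.89 and 3.0 in MI-NS replicates 1 to 3. Over the 6 libraries their log2 CPM profiles, each centred on its own mean, differed by a root mean square of 0.15, the smallest difference among the 28 pairs of the 8 genes. In MI-NS replicate 1 both stood above the mean of the other two MI-NS libraries, Hmgcs1 by 0.68 and Insig1 by 0.83 on the log2 scale, at percentiles 96.1 and 97.5 of all tested genes. Idi1 and Sqle stood on the other side, at -0.76 and -0.71, at percentiles 2.0 and 2.30. Srebf2 and Fdft1, at -0.06 and 0.07, stayed near the median of all tested genes, 0.02. These values were picked after they were seen and describe 1 library. In the same library 9 of 10 fibroblast and 9 of 10 macrophage markers had their highest level, against 17.1% of all tested genes. Of 10 endothelial markers 1 did so, of 10 mural cell markers 4, and of 10 adult cardiomyocyte markers 0. Whether this bears on Hmgcs1 and Insig1 was not tested.

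**Figure D2:**
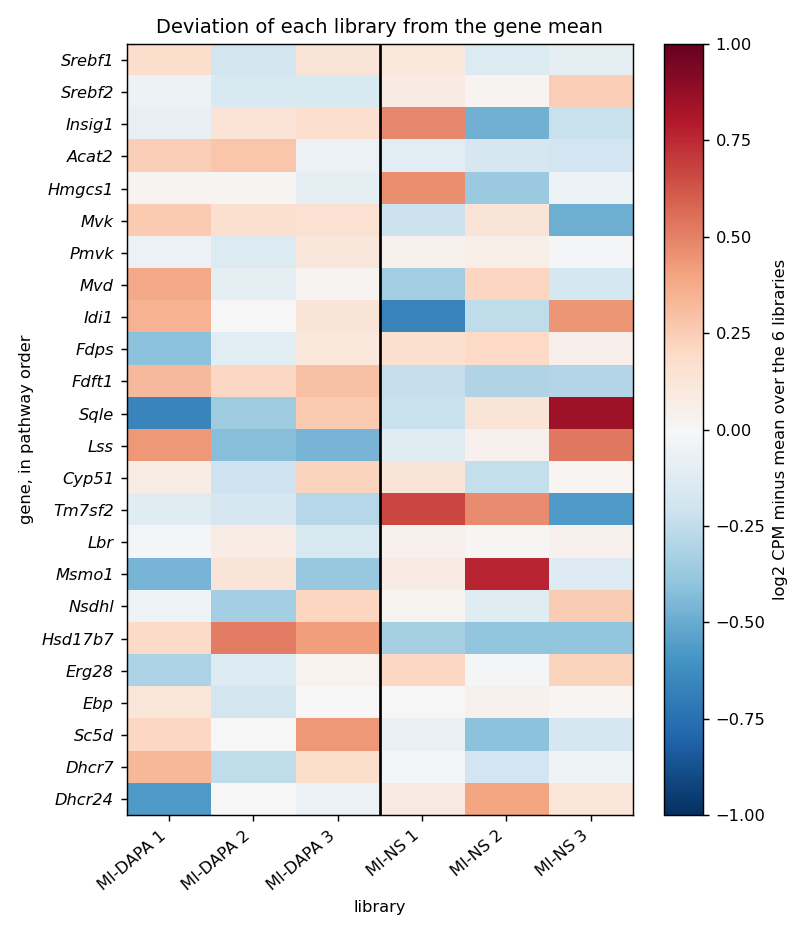
Deviation of log2 CPM from the gene's mean over the 6 libraries (colour scale -1 to 1) for the 8 genes and 16 of the 17 other sterol enzymes in pathway order (rows), with the MI-DAPA libraries left of the MI-NS libraries (columns). Fdft1 and Hsd17b7 change colour at the line between the groups, while Hmgcs1 and Insig1 are high in MI-NS replicate 1 and Idi1 is low there.

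The start regions of these genes are shown because the sterol response acts on them. RefSeq windows on GRCm38.p6, from 250 bases before to 50 bases after an annotated transcript start, were found for 5 of the 8 genes. Srebf1 had 3 windows and enters the 7 windows counted below 3 times. No window was found for Sqle, Fdps and Fdft1, so the gene called higher is not covered. The 4 windows below belong to Hmgcs1 and Insig1, which were both high in MI-NS replicate 1, to a gene with the opposite deviation in MI-NS replicate 1 and to Srebf2. They are Hmgcs1 at chr13:119690101-119690400, Insig1 at chr5:28071162-28071461, Idi1 at chr13:8885356-8885655 and Srebf2 at chr15:82147019-82147318, all on the plus strand and written 5′ to 3′. Capitals mark, on either strand, the sterol regulatory element letters TCACNCCA, the CCAAT box and the E-box CACGTG.
Hmgcs1: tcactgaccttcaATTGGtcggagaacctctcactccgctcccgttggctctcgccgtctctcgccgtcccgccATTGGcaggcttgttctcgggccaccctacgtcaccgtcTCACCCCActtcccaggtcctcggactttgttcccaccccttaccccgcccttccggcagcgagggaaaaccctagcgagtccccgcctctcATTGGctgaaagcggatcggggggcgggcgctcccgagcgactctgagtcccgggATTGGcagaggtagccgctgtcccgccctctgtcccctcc
Insig1: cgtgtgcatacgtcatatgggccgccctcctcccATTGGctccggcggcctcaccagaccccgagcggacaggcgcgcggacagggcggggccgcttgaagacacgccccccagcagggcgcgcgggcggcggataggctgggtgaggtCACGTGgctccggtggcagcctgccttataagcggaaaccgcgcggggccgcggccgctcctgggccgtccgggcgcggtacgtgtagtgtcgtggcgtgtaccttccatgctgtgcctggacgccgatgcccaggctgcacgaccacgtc
Idi1: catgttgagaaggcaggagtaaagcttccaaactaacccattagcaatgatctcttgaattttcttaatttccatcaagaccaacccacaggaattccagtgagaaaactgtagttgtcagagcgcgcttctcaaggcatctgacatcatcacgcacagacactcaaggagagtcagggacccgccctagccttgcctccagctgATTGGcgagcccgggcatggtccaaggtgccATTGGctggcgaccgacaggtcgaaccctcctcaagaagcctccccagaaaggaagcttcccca
Srebf2: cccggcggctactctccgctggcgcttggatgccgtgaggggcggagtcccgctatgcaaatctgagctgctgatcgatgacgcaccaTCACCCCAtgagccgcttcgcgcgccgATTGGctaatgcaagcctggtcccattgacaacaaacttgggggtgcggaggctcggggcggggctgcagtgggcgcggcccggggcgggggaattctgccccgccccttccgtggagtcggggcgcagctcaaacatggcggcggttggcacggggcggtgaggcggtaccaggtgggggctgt
Distances are counted from the RefSeq starts. In the 4 windows printed these differ from the starts of the counted genes, for Hmgcs1 119690351 against 119690462. The letters TCACNCCA stood in 2 of the 7 windows of the 8 genes, both times as TCACCCCA. They lay 137 bases before the start of Hmgcs1 and 162 bases before that of Srebf2. They stood in 4.36% of 32851 mouse windows of the same length. The CCAAT box, the binding letters of NF-Y, which works with SREBP at sterol promoters, stood in 6 of the 7 windows, against 37.4% of all windows, with 4 copies for Hmgcs1 and 2 for Idi1. The GC box GGGCGG, bound by Sp1, which is not marked, stood in 6 of 7, against 35.7%. The E-box stood in the Insig1 window alone, 101 bases before the start, against 7.15% of all windows. In 18 windows of 15 other sterol enzyme genes TCACNCCA stood in 1, the CCAAT box in 13, the GC box in 15 and the E-box in 3. In the 4 windows printed no match overlaps another. The motifs were chosen with the windows in view, and a match describes letters, not binding. The 2 genes with the element differed in their values, Hmgcs1 varying within MI-NS and Srebf2 lying lower in all MI-DAPA libraries.

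The isoprenoid steps follow. Idi1 (ENSMUSG00000058258, chromosome 13, 8885501 to 8892451) encodes the isomerase that makes dimethylallyl diphosphate, the primer of isoprenoid chains. It had 5.12, 3.99 and 4.37 CPM in MI-DAPA replicates 1 to 3, against 2.48, 3.34 and 5.47 CPM in MI-NS replicates 1 to 3, from 76 to 103 counts per MI-DAPA library and 56 to 92 per MI-NS library. MI-NS held both the lowest and the highest value. The log2 change of 0.27 ± 0.28 (95% interval -0.36 to 0.91, edgeR adjusted p = 0.545) ranged, with single libraries left out, from 0.05 without MI-NS replicate 1 to 0.63 without MI-NS replicate 3. It was 0.67 without replicate 3 of both groups, and none of these passed.

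Fdps (ENSMUSG00000059743, chromosome 3, 89093588 to 89101959) encodes farnesyl diphosphate synthase, whose product is the branch point between sterols and protein prenylation. It had 6.16, 7.63 and 8.85 CPM in MI-DAPA replicates 1 to 3, against 9.18, 9.47 and 8.50 CPM in MI-NS replicates 1 to 3. The groups overlapped by MI-DAPA replicate 3 alone, and the log2 change of -0.27 ± 0.15 (95% interval -0.61 to 0.08) did not pass (edgeR adjusted p = 0.274). On the same strand the gene model Gm43738 shares 26.7% of the exon bases of Fdps, and reads could have been split between them. Gm43738 had 7 to 31 counts per MI-DAPA library and 6 to 32 per MI-NS library, while Fdps had 124 to 155 counts per MI-DAPA library and 143 to 207 per MI-NS library.

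Fdft1 (ENSMUSG00000021273, chromosome 14, 63145153 to 63177793) encodes the enzyme that joins farnesyl diphosphate molecules into squalene, the first step committed to sterols. It had 28.9, 26.5 and 28.3 CPM in MI-DAPA replicates 1 to 3, against 19.7, 18.6 and 18.8 CPM in MI-NS replicates 1 to 3. The groups were far apart and each was narrow. The mean was 27.9 ± 1.23 CPM in MI-DAPA and 19.02 ± 0.551 CPM in MI-NS (SD, n = 3 each), a log2 change of 0.55 ± 0.08 (95% interval 0.36 to 0.74; edgeR adjusted p = 0.00562). Its absolute log2 change was larger than that of 85.1% of tested genes. With each library left out in turn the change lay between 0.53 and 0.60 and passed each time, with adjusted p of 0.0119 to 0.0266. Scaled by library totals alone it was 0.45 (adjusted p = 0.0313). The adult cardiomyocyte markers were higher in the same libraries (7 of 10), and their part in the Fdft1 value was not tested.

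The 3′ end of Fdft1 lies on that of Ctsb, the cathepsin B gene on the opposite strand, over 774 exon bases or 18.3% of Fdft1's exons. Use of strand in the counting was not given in the sources used here. The reads of this overlap could have been counted for either gene. Ctsb was the more abundant gene, with 454, 463 and 489 CPM in MI-DAPA replicates 1 to 3 and 462, 457 and 458 CPM in MI-NS replicates 1 to 3. Its log2 change was 0.03 ± 0.07 (edgeR adjusted p = 0.787). Whether reads of the overlap bear on the Fdft1 value was not tested. Ratios of counts within a library need no scaling. The ratio of Fdft1 to Fdps counts was 4.69, 3.48 and 3.19 in MI-DAPA replicates 1 to 3, against 2.14, 1.97 and 2.21 in MI-NS replicates 1 to 3. The ratio of Fdft1 to Srebf2 counts was 1.17, 1.15 and 1.23 in MI-DAPA and 0.729, 0.717 and 0.618 in MI-NS. All MI-DAPA ratios lay above all MI-NS ratios for both pairs, which were chosen after their values were seen and were not tested.

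**Figure D3:**
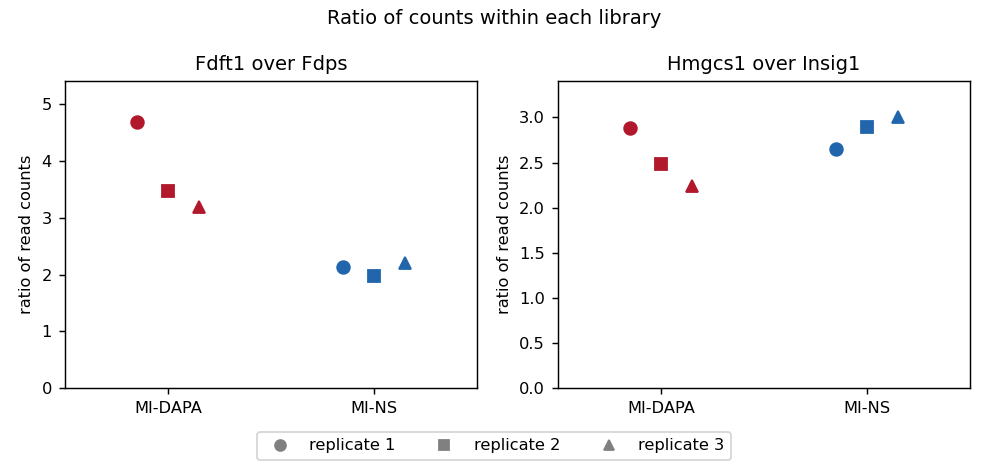
Ratio of read counts within each library (y axis, from 0) for Fdft1 over Fdps (left) and Hmgcs1 over Insig1 (right), with the 3 MI-DAPA libraries left of the 3 MI-NS libraries and symbols for the replicate number. The Fdft1 to Fdps ratio is 3.19 to 4.69 in MI-DAPA and 1.97 to 2.21 in MI-NS, while the Hmgcs1 to Insig1 ratios of the groups overlap.

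Sqle (ENSMUSG00000022351, chromosome 15, 59315077 to 59331192), squalene epoxidase, an oxygen-dependent control point after squalene, was the scarcest of the 8. It had 10, 13 and 18 counts in MI-DAPA replicates 1 to 3, against 16, 19 and 27 counts in MI-NS replicates 1 to 3, that is 0.724 ± 0.278 CPM in MI-DAPA and 1.08 ± 0.466 CPM in MI-NS. The libraries overlapped. The log2 change of -0.57 ± 0.43 had a 95% interval from -1.54 to 0.40 and did not pass (edgeR adjusted p = 0.404). Its spread on the log2 scale was also wide, with SDs of 0.47 in MI-DAPA and 0.55 in MI-NS, at percentiles 91.2 and 93.5 of tested genes.

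Compared per length, as mean CPM per kilobase of exon in GENCODE M21, the 8 genes covered a wide range. Hmgcs1 was highest, with 6.89 ± 0.324 CPM per kb in MI-DAPA and 7.22 ± 2.17 CPM per kb in MI-NS. Fdft1 had 6.60 ± 0.291 CPM per kb in MI-DAPA and 4.50 ± 0.130 CPM per kb in MI-NS, so it stood beside Hmgcs1 within the spread in MI-DAPA. Srebf1 had 4.12 ± 0.536 CPM per kb in MI-DAPA and 3.88 ± 0.362 CPM per kb in MI-NS, and Insig1 4.07 ± 0.370 CPM per kb in MI-DAPA and 3.81 ± 1.38 CPM per kb in MI-NS. Srebf2 had 3.28 ± 0.139 CPM per kb in MI-DAPA and 3.87 ± 0.319 CPM per kb in MI-NS, and in MI-NS these 3 regulator genes differed by less than their spread. Fdps followed with 1.79 ± 0.320 CPM per kb in MI-DAPA and 2.15 ± 0.119 CPM per kb in MI-NS, then Idi1 with 1.28 ± 0.164 CPM per kb in MI-DAPA and 1.07 ± 0.438 CPM per kb in MI-NS, and last Sqle with 0.130 ± 0.0502 CPM per kb in MI-DAPA and 0.195 ± 0.0840 CPM per kb in MI-NS (SD, n = 3 each). The coordinates of 5 of the 8 genes are identical in the files and in GENCODE M21, and the lengths of Hmgcs1, Fdft1 and Srebf2 rest on models that differ from those counted.

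The other enzymes of the pathway, 17 genes from acetyl-CoA to cholesterol, were set beside the 8. Of these 1 rose, 0 fell and 16 did not pass, 5.88% against 16.5% of all tested genes, with a median log2 change of -0.04. Hsd17b7, which encodes a 3-ketosteroid reductase of the late pathway, rose 1.70-fold, with 19.1, 23.9 and 22.4 CPM in MI-DAPA replicates 1 to 3, against 13.2, 12.7 and 12.7 CPM in MI-NS replicates 1 to 3 (log2 0.76 ± 0.11, edgeR adjusted p = 0.00499). Like Fdft1 it kept its call with each library left out. All MI-DAPA libraries lay above all MI-NS libraries in 4 of the 17, Hsd17b7, Sc5d, Acat2 and Mvk, while 18.4% of all tested genes separated in this way. Sc5d, a sterol desaturase gene, was at 0.44 ± 0.15 on the log2 scale and did not pass (edgeR adjusted p = 0.0865). The remaining members ran from -0.51 for Msmo1, a methyl sterol oxidase gene, to 0.36 for Mvk, mevalonate kinase.

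**Figure D4:**
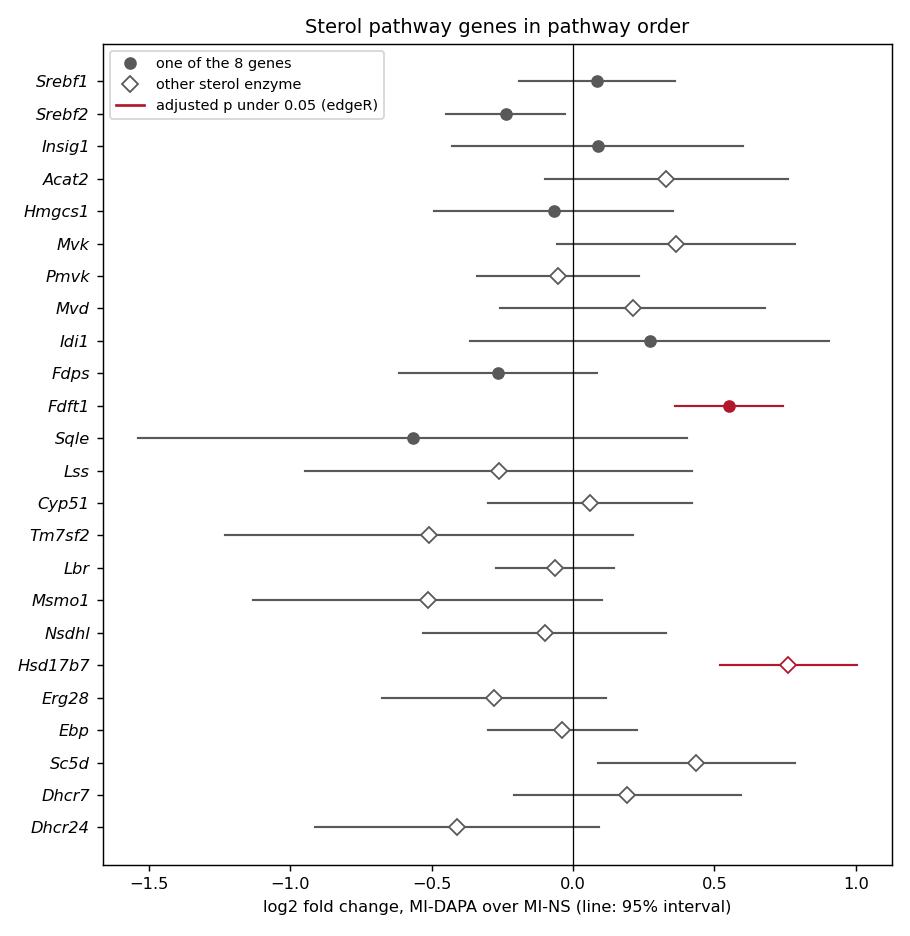
Log2 fold change of MI-DAPA over MI-NS (x axis) with its 95% interval for the 8 genes (filled circles) and 16 of the 17 other sterol enzymes (open diamonds), in pathway order from top to bottom. Red marks the genes with an edgeR adjusted p under 0.05, Fdft1 at 0.55 and Hsd17b7 at 0.76, and of the others the intervals of Srebf2 and Sc5d lie off 0 while the genes did not pass after adjustment.

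Of 11 genes that process or retain SREBP, 2 rose, 1 fell and 8 did not pass, 27.3% called against 16.5% of all tested genes, with a median log2 change of 0.05. Insig2, the second retention protein gene, rose 1.31-fold, with 37.5, 35.5 and 42.9 CPM in MI-DAPA replicates 1 to 3, against 30.2, 30.5 and 27.8 CPM in MI-NS replicates 1 to 3 (log2 0.39 ± 0.10, edgeR adjusted p = 0.0286). Its call was lost without MI-DAPA replicate 1, MI-DAPA replicate 3 or MI-NS replicate 3, with adjusted p up to 0.091. Rnf139, a ubiquitin ligase gene of the endoplasmic reticulum, rose 1.32-fold (log2 0.40 ± 0.09, adjusted p = 0.021) and lost its call without MI-DAPA replicate 1 or 2 or MI-NS replicate 1 or 3, with adjusted p up to 0.062. Pgrmc1, which encodes a haem-binding membrane protein, fell 1.23-fold (log2 -0.30 ± 0.09, adjusted p = 0.0461). It kept its call with 0 of the 6 libraries left out, with adjusted p up to 0.164. It also missed the threshold by DESeq2 (0.109), by limma (0.05002) and, by edgeR, without a filter (0.0817). The same held by edgeR with DESeq2 size factors (0.0507), nuclear genes only (0.0595) and the replicate number as a block (0.0683). Scaled by library totals alone, Insig2 and Rnf139 missed the threshold (edgeR adjusted p = 0.13 and 0.121). Insig2 also missed it with the replicate number as a block (0.051). The escort gene Scap, at 0.10 ± 0.10, and the protease gene Mbtps1, at -0.01 ± 0.09, did not pass.

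Genes of sterol uptake and transport went both ways: of 14 tested, 3 rose, 1 fell and 10 did not pass, 28.6% called against 16.5% of all tested genes, with a median log2 change of -0.24. The number lower was 3 under upper quartile scaling and under the stricter filter, and 4 when scaled by library totals alone. Vldlr, a lipoprotein receptor gene abundant in heart muscle, rose 1.53-fold, with 335, 290.4 and 306 CPM in MI-DAPA replicates 1 to 3, against 218, 177 and 212 CPM in MI-NS replicates 1 to 3 (log2 0.62 ± 0.10, adjusted p = 0.00625), and kept its call with each library left out. Npc1, a lysosomal cholesterol exporter gene, rose 1.35-fold (log2 0.44 ± 0.10, adjusted p = 0.0233), and the sterol transfer protein gene Gramd1b rose 1.66-fold (log2 0.73 ± 0.16, adjusted p = 0.0183). Lrp1, a large endocytic receptor gene, fell 1.41-fold (log2 -0.50 ± 0.13, adjusted p = 0.0303). Npc1 and Gramd1b both lost their calls without MI-DAPA replicate 1 or 3 or MI-NS replicate 2 or 3, with adjusted p up to 0.0822 for Npc1 and 0.0718 for Gramd1b, and Npc1 also when scaled by library totals alone (0.107). Lrp1 kept its call without MI-NS replicate 2 but not without any other library, with adjusted p up to 0.114. It also missed the threshold with the replicate number as a block (edgeR adjusted p = 0.055).

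Of 14 tested genes of sterol efflux, esterification and the LXR pathway, 1 rose, 1 fell and 12 did not pass, 14.3% called against 16.5% of all tested genes, with a median log2 change of -0.14. Nceh1, a cholesteryl ester hydrolase gene, rose 1.55-fold, with 185, 168 and 180.3 CPM in MI-DAPA replicates 1 to 3, against 125, 104 and 115 CPM in MI-NS replicates 1 to 3 (log2 0.63 ± 0.09, edgeR adjusted p = 0.00499), and kept its call with each library left out. Apoe, the apolipoprotein E gene, which macrophages express strongly, fell 1.70-fold, with 93.4, 111 and 152 CPM in MI-DAPA replicates 1 to 3, against 230.1, 203 and 172 CPM in MI-NS replicates 1 to 3 (log2 -0.76 ± 0.17, adjusted p = 0.0214). Its call was lost without MI-DAPA replicate 1 or 2 or MI-NS replicate 1 or 2, with adjusted p up to 0.07. Soat1, the gene of the enzyme that esterifies cholesterol, was at -0.59 ± 0.17 and missed the threshold (adjusted p = 0.0503), but passed under 5 of the other scalings, filters and tests, at 0.0392 to 0.0476. The macrophage markers were lower in the same libraries (4 of 10), and their part in the Apoe and Soat1 values was not tested. The LXR receptor genes Nr1h2 (log2 -0.10 ± 0.12) and Nr1h3 (log2 0.06 ± 0.10) and the exporter gene Abca1 (log2 -0.04 ± 0.19) did not pass.

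Among 21 genes of fatty acid synthesis and its branches that SREBP-1 is known to act on, 4 rose, 1 fell and 16 did not pass, 23.8% called against 16.5% of all tested genes, with a median log2 change of 0.14. The genes that rose were Gpam, Dgat2, Acacb and Acss2. Gpam, which encodes the first acyltransferase of triglyceride synthesis, rose 1.88-fold (log2 0.91 ± 0.22, edgeR adjusted p = 0.0251) and lost its call without MI-DAPA replicate 1 or 3 or MI-NS replicate 3, with adjusted p up to 0.0931. Dgat2, the last acyltransferase of that route, rose 1.64-fold (log2 0.71 ± 0.11, adjusted p = 0.00607). Acacb encodes the acetyl-CoA carboxylase that controls entry of fatty acids into mitochondria, and it rose 1.58-fold, with 489, 393 and 440 CPM in MI-DAPA replicates 1 to 3, against 306, 260 and 269 CPM in MI-NS replicates 1 to 3 (log2 0.66 ± 0.10, adjusted p = 0.00562). Acss2, a cytosolic acetyl-CoA synthetase gene, rose 1.40-fold (log2 0.49 ± 0.09, adjusted p = 0.00964) and missed the threshold when scaled by library totals alone (adjusted p = 0.0556). Fads1, a fatty acid desaturase gene, fell 1.26-fold (log2 -0.33 ± 0.09, adjusted p = 0.0305). It kept its call with 0 of the 6 libraries left out, with adjusted p up to 0.108. It also missed the threshold by DESeq2 (0.0646) and, by edgeR, without a filter (0.0504). The synthesis genes Fasn (log2 0.14 ± 0.16), Acaca (log2 -0.08 ± 0.16), Acly (log2 -0.02 ± 0.08) and Scd1 (log2 -0.32 ± 0.10) did not pass. The cardiomyocyte markers were higher in the same libraries (7 of 10), and their part in these values and in that of Vldlr was not tested. Of 10 adipocyte markers 5 were tested, of which 2 were higher, 0 were lower and 3 did not pass. Those 3 had a negative sign, and the median log2 change of the 5 was -0.11. The 2 that were higher were Pnpla2 and Plin4, lipid droplet genes that muscle also expresses. The summed level of the 10 was 587 to 679 CPM in MI-DAPA and 503 to 526 CPM in MI-NS, without overlap, and its part in these values was not tested. Adipoq, another of the 10, had 0, 9 and 6 counts in MI-DAPA replicates 1 to 3. In MI-NS replicates 1 to 3 it had 10, 2 and 6 counts, and counts this low cannot compare the groups.

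Over all 6 pathway lists, with the isoprenoid branch included and the 8 genes left out, 91 genes were tested, of which 12 rose and 4 fell, 17.6% against 16.5% of all tested genes. Scaled by library totals alone the counts were 7 higher and 8 lower. Of the genes called, the 8 genes included, 8 of 17 kept their calls with each of the 6 libraries left out. The matching share over all genes called is not given here, so 8 of 17 cannot be read as particular to these genes.

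**Figure D5:**
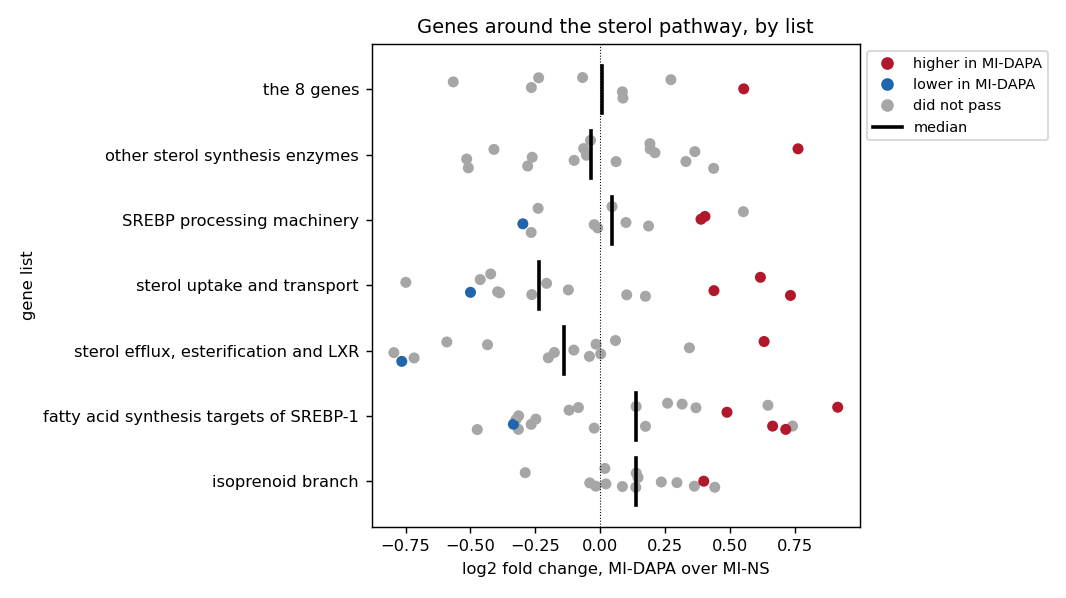
Log2 fold change of MI-DAPA over MI-NS (x axis) of each tested gene in the 8 genes and in 6 lists around the pathway (rows); red and blue mark genes called higher and lower by edgeR, grey those that did not pass, and the bar the list's median. The medians lie between -0.24 and 0.14, and called genes of both directions stand in 4 of the lists.

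By the root mean square difference of centred log2 CPM over the 6 libraries, the nearest profiles to Hmgcs1 among 8697 other genes that averaged 3 or more on the log2 CPM scale were those of Pdxk (0.09), Smpdl3a (0.10), Agfg2 (0.10), Epg5 (0.11) and Wrb (0.12). Of these Smpdl3a is a known LXR target. Its level was 54.7, 52.4 and 53.5 CPM in MI-DAPA replicates 1 to 3. In MI-NS replicates 1 to 3 it was 64.2, 44.7 and 51.5 CPM. The order in MI-NS is that of Hmgcs1, which follows from the choice by profile. The nearest to Srebf1 included Ddx3y (0.04), Scap (0.04), Phf12 (0.05) and Lrfn4 (0.05). Scap, the escort of the SREBP precursors, had 36.7, 31.8 and 38.0 CPM in MI-DAPA replicates 1 to 3. In MI-NS replicates 1 to 3 it had 36.4, 30.7 and 32.2 CPM. Scap was low in replicate 2 of both groups as Srebf1 was, which follows from the choice by profile. Ddx3y was as near to Srebf1 as Scap was. Whether any of these genes share control was not tested.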

How the data were processed

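Libraries were made from mRNA of left ventricle tissue and sequenced on an Illumina NovaSeq, per the labels' protocols. The authors deposited raw read counts per gene, 1 table for each library. The build mm10 and the tools StringTie 1.3.0 and edgeR are named, per the submitters' processing notes. Their roles, the aligner and the use of strand were not given in the sources used here. Groups and replicate numbers are from the sample titles. The labels call the libraries biological replicates without naming animals, so whether each came from its own animal was not given. A p-value covers only the spread among these libraries.

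The software was edgeR 4.0.16 under R 4.3.3. The filter on genes was filterByExpr (minimum count 10, minimum total 15), scaling was by TMM, and glmQLFTest gave p-values that were adjusted by Benjamini-Hochberg across every tested gene. Standard errors are the absolute log2 change over the square root of F, and intervals cover 95%. Log2 CPM used a prior count of 2. The steps were tested on simulated data. Erg28 is listed under a clone name and was matched by identifier. Alternatives were other scalings, filters and tests (DESeq2 1.42.0, limma 3.58.1), a replicate block and libraries left out.

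The 8 genes, the lists and the alternatives were chosen with earlier results of these data known. The rule for named genes took the 8 genes, called genes of each list and the 5 nearest profiles; other members are named for their roles. Some genes that it covers are not reported here, but they remain in the counts and medians.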

Additional observations from a re-analysis of the deposited data

How the results depend on the processing

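Of 127 values of the 8 genes under alternative settings, 120 kept their sign and their side of the threshold, and Sqle had no value under the stricter filter of 50 counts. The 6 sign changes were of genes that did not pass: Hmgcs1 without MI-NS replicate 1 (0.21), Srebf1 scaled by library totals alone (-0.023), and Insig1 under that scaling (-0.028) and, with libraries left out, without MI-NS replicate 2 (-0.093), MI-NS replicate 3 (-0.0028) or replicate 3 of both groups (-0.028). With single libraries left out Hmgcs1 ranged from -0.23 to 0.21 and Insig1 from -0.093 to 0.44, while Fdft1 stayed between 0.53 and 0.60. Without replicate 3 of both groups Fdft1 was at 0.55 and not called, so that 0 of the 8 genes were higher. That fit called 8 genes higher and 16 lower in all, and 0 and 1 of the pathway lists. Fits without a single library called 541 to 1087 genes higher and 457 to 844 lower, and 7 to 13 and 0 to 4 genes of the pathway lists. Scaling by library totals alone gave 410 genes higher and 1249 lower, and 7 and 8 of the pathway lists. Upper quartile scaling and the stricter filter each gave 7 pathway genes lower. With the replicate number as a block 1272 genes were higher and 1035 lower, 1 and 0 of the 8 genes, and 14 and 3 of the pathway lists. Same-numbered libraries had correlated deviations of 0.04, -0.01 and 0.11, so the numbers were not taken to pair samples. Of the MI-DAPA libraries 1 of 3 correlated best with its own number, replicate 3, whose 0.11 was the largest correlation between the groups. Replicate 3 also had the highest share of mitochondrial counts in each group, 40.7% in MI-DAPA and 42.0% in MI-NS. The other libraries had 35.1% to 35.7% in MI-DAPA and 34.3% to 37.6% in MI-NS. Whether replicate 3 of both groups belongs together was not tested. The causes of the changes between settings were not tested. Sqle had the lowest counts of the 8 genes, 10 to 18 in MI-DAPA and 16 to 27 in MI-NS.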

Other observations

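The side branches of the pathway that use isoprenoids for prenylation, dolichol and ubiquinone held 14 tested genes. Of these 1 rose, 0 fell and 13 did not pass, 7.14% called against 16.5% of all tested genes. The median log2 change was 0.14, beside -0.02 for all tested genes, with a positive sign in 11 of the 14. The share of positive signs over all genes is not given here, so this count cannot be read as particular to the branch. Scaled by library totals alone, the median of all genes moved by -0.10. Zmpste24, which encodes the protease that trims prenylated proteins such as prelamin A, rose 1.32-fold, with 36.9, 38.3 and 37.7 CPM in MI-DAPA replicates 1 to 3, against 28.1, 27.3 and 30.3 CPM in MI-NS replicates 1 to 3 (log2 0.40 ± 0.08, edgeR adjusted p = 0.0139). It passed with each library left out and did not when scaled by library totals alone (adjusted p = 0.088). Ggps1, the synthase of geranylgeranyl diphosphate, which uses the product of Fdps, was at a log2 change of 0.14 ± 0.12 without passing (adjusted p = 0.476). The farnesyltransferase genes Fnta and Fntb were at log2 changes of 0.14 ± 0.10 and 0.30 ± 0.16, and neither passed.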
